A study of Arabidopsis thaliana with 4 samples.

Results

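The 10 genes described here encode C2H2 zinc finger proteins of the ZAT and AZF family of Arabidopsis thaliana. They are ZAT5, ZAT6, ZAT7, ZAT8, ZAT10 (also called STZ), ZAT11, ZAT12, AZF1, AZF2 and AZF3. They were chosen by locus identifier, with earlier results of these data known, and all 10 were found among the 33602 genes of the deposited table. The names ZAT5 and ZAT8 are in common use for AT2G28200 and AT3G46080, which the RefSeq gene table lists by identifier only. The series compared whole 14-day-old seedlings of the Col-0 ecotype grown hydroponically on a nitrogen-free salt mixture with seedlings then moved for 0.5 h to the same mixture with 2.5 mM glutamate (Glu). Each group had 2 RNA-seq libraries, and the nitrogen-free medium was common to both. A transfer to glutamate-free medium for the same time was not among the samples, so glutamate, the transfer and the elapsed time cannot be told apart. Whether the replicates were grown in separate cultures is not stated in the labels, and p-values therefore describe the spread between libraries, possibly a technical one.

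C2H2 proteins of this plant class carry a pair of zinc fingers that bind DNA, each with the plant-specific QALGGH sequence. Many also carry a short EAR motif near the C terminus, through which they recruit co-repressors such as TOPLESS and histone deacetylases and so lower transcription. Their genes are known as fast-responding genes of salt, cold, drought, high light, wounding and oxidative stress, and several of the proteins alter stress tolerance when overproduced or lost.

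Reads recovered from the deposited values came to between 21776595 and 27674435 per library. At this depth 3 reads in a gene of 1 kb were worth 0.104 to 0.152 RPKM (reads per kilobase of gene length and scaled to the size of the library, here with the authors' TMM normalization). Shoot tissue was plainly present, with the Rubisco small subunit gene RBCS1A at 4645 to 6421 RPKM. Of the root markers, CASP1 lay at 9.87 to 20.9 RPKM and SHR at 3.19 to 3.81 RPKM, while PIN2 and COBL9 did not exceed 1.05 RPKM. Both pollen markers had 0 reads in every library, and the seed storage gene CRU3 reached at most 1.73 RPKM. The shoot markers LHCB3 and RCA were called lower after glutamate, by 1.16 and 0.79 on the log2 scale. RBCS1A was not called (log2 change -0.18), and its groups overlapped. The part of tissue make-up in the results below was not tested. In these bulk libraries fewer cells of a type and less RNA per cell cannot be told apart.

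After 0.5 h with glutamate 9 of the 10 genes were higher and 1, ZAT5, was lower (limma, adjusted p under 0.05 over all 17750 genes tested). Among all genes tested 16.3% were called higher and 14.6% lower, 30.8% together. The median log2 change of the 10 genes was 3.18, against -0.06 for all genes tested. The rise was at least 3 on the log2 scale for 5 of them (ZAT7, ZAT8, ZAT10, ZAT11 and ZAT12), a size reached by 2.06% of all genes tested. On the log2(RPKM + 1) scale the rise was at least 2-fold for 8 of them, against 10.3% of all genes tested. For AZF1, the remaining higher gene, the ratio of mean RPKM values was 2. All 10 genes passed the filter on low values. The call of AZF3 is uncertain, because its reads may in part match other genes. In each of the 9 higher genes both glutamate libraries lay above both control libraries, as in 29.1% of all genes tested, and in ZAT5 both lay below, as in 37.1%. Log2 changes are differences of log2(RPKM + 1), a scale that understates the change of low genes. The share of all calls that were higher was 52.8% as deposited and 36% with libraries scaled to their totals, while the 9 higher and 1 lower calls of the family were the same in number under both scalings.

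**Figure D1:**
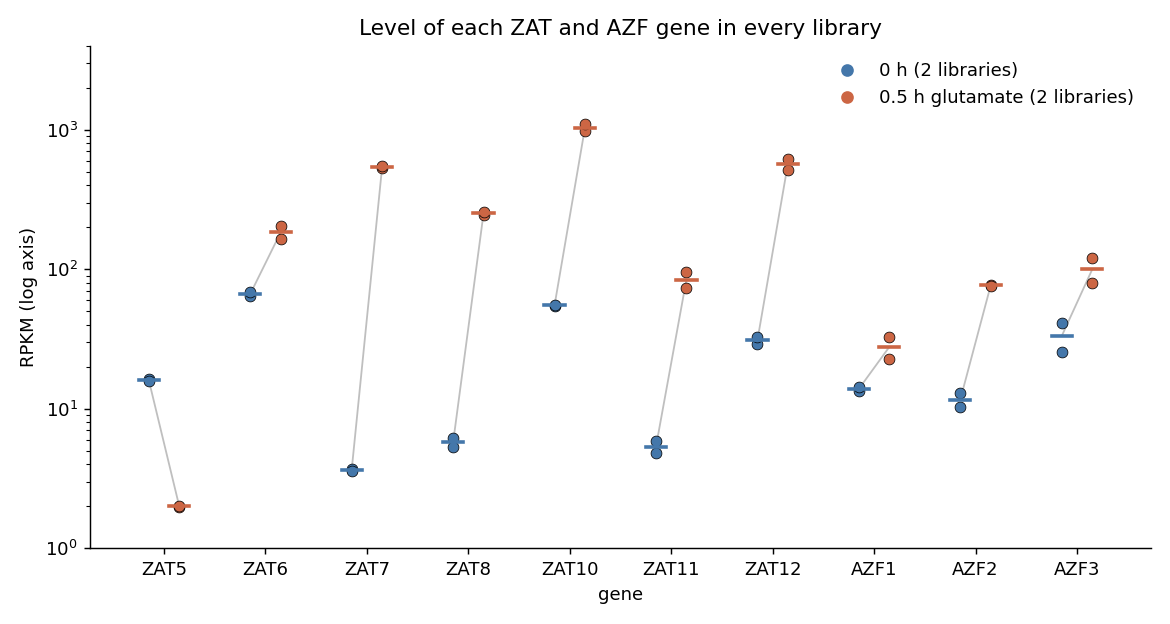
RPKM of each of the 10 genes in the 4 libraries, on a log axis, with 0 h in blue and 0.5 h of glutamate in orange. Points are libraries and short bars are group means. ZAT7 has the lowest level at 0 h and the third highest at 0.5 h, and ZAT5 is the gene whose glutamate points lie below its control points.

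ZAT7 (AT3G46090) made the largest rise of the family. The protein is known for raising salt tolerance when overproduced. Its level was 3.69 and 3.6 RPKM in the control libraries and 529 and 552 RPKM in the glutamate libraries. The control libraries held 67 and 57 reads of it and the glutamate libraries 6641 and 8035, so that the groups lay far apart. Its mean rose from 3.65 ± 0.0656 to 541 ± 16 RPKM (SD, n = 2), a ratio of 148. The log2 change was 6.87 ± 0.12 (SE; limma, adjusted p = 3.82e-05), and 0.0282% of the genes tested rose more.

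ZAT8 (AT3G46080) lies in tandem with ZAT7 on the minus strand of chromosome 3, at 16922514 to 16923299, with ZAT7 at 16925881 to 16926883 (TAIR10.1 annotation). The level of ZAT8 was 6.14 and 5.34 RPKM in the control libraries and 246 and 257 RPKM in the glutamate libraries. Both glutamate libraries were far above both control libraries. Its mean rose from 5.74 ± 0.565 to 252 ± 7.72 RPKM, with a log2 change of 5.23 ± 0.13 (limma, adjusted p = 3.82e-05). The coding sequences of the pair were identical at 88.2% of aligned positions, the closest of the 45 pairs within the family, whose median was 46.7%. The longest stretch of coding sequence that ZAT7 and ZAT8 share without a difference is 44 bases, and the deposited shared-read fraction was 0 for both genes.

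Between the pair lies AT3G46086, a gene of unknown product at 0.148 and 0.17 RPKM in the control and 0.216 and 0.186 RPKM in the glutamate libraries. Each of these values is the level the table gives to a gene of this length without reads. On the other side of ZAT8 lies AT3G46070, annotated as a further C2H2 gene, at 0.0338 and 0.116 RPKM in the control and 0.74 and 0.978 RPKM in the glutamate libraries. It stayed below the minimum mean of 1 RPKM and was not tested. Around the family as a whole, 19 different protein-coding genes were the nearest neighbours, of which 10 were tested. Of these, 2 were called higher, 0 lower and 8 neither, at an adjusted p under 0.05 in limma. At an unadjusted p under 0.05, and with voom, 0 were lower too. Of all genes tested 16.3% were called higher and 14.6% lower, so these counts are near the background. The 2 neighbours called higher were AT2G28210, a carbonic anhydrase gene next to ZAT5, and AT3G46100, a histidyl-tRNA synthetase gene next to ZAT7. Their log2 changes were 1.80 and 0.49.

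The stretches of 250 bases directly before the annotated start sites of ZAT7 and ZAT8 were also aligned, with gaps allowed. Of 288 aligned positions 195 were identical, or 67.7%, and no other pair of stretches was compared. Both stretches are shown, with that of ZAT12, because these are the members with the letters CGCG in this window of 250 bases. CGCG is the core of the element that calmodulin-binding CAMTA factors bind. The sequences read 5′ to 3′ along the gene's strand and end at the base before the RefSeq start site (TAIR10.1), with CGCG in capitals. The ZAT7 window is chr3:16926884-16927133 on the minus strand, that of ZAT8 is chr3:16923300-16923549 on the minus strand and that of ZAT12 is chr5:24102564-24102813 on the plus strand.
ZAT7: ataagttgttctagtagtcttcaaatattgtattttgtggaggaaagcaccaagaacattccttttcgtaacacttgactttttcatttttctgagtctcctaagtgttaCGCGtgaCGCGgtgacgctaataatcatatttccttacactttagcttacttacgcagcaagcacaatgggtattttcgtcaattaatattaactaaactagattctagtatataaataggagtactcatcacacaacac
ZAT8: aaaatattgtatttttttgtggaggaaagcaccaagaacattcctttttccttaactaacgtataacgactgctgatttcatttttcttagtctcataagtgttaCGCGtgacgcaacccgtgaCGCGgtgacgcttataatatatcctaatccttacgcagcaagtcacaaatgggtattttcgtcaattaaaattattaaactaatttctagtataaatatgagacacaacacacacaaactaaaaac
ZAT12: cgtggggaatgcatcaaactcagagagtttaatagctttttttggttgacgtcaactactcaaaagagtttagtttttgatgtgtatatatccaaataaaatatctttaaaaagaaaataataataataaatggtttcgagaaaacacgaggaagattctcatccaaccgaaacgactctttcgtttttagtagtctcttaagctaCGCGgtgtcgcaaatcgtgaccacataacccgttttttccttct

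In ZAT7 the CGCG matches begin 140 and 133 bases before the start site, in ZAT8 145 and 126 bases and in ZAT12 44 bases before it. The letters CGCG, which read the same on both strands, were in this window of 3 of the 10 members and in 10.1% of 27443 protein-coding genes. At least 2 matches were present in 1.72% of those genes. The core of the W box bound by WRKY factors, TTGAC on either strand, was present in 8 of 10 members and in 44.9% of all windows. GAANNTTC, the letters of a heat shock element, was present in 5 members and in 9.55% of all windows, and CACGTG, the G box, in 0 members and in 6.49%. Among all genes called higher the shares were 18.5% for CGCG, 53.3% for TTGAC, 12.9% for GAANNTTC, 9.18% for CACGTG and 1.84% for GCCGCC, the core of the GCC box bound by ERF factors. The motifs searched do not overlap in the sequences shown. A match describes letters only and is no evidence of binding.

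ZAT6 and ZAT10 instead share GCCGCC, which was found in these 2 members and in 1.87% of all windows. Both carry it on the opposite strand, as GGCGGC, in capitals here. ZAT5 is shown with them because it fell. It holds neither CGCG nor GCCGCC, but the same is true of ZAT11, AZF1, AZF2 and AZF3, which were called higher. The ZAT6 window is chr5:1217363-1217612 on the minus strand, that of ZAT10 is chr1:9649324-9649573 on the minus strand and that of ZAT5 is chr2:12023690-12023939 on the plus strand.
ZAT6: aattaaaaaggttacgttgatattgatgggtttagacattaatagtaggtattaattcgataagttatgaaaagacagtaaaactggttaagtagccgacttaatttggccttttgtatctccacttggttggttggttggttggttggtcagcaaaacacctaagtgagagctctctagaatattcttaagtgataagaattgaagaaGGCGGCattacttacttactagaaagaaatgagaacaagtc
ZAT10: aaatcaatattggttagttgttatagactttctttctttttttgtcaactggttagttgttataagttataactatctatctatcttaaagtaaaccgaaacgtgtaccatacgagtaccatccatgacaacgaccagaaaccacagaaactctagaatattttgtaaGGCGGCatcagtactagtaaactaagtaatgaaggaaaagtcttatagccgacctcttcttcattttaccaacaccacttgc
ZAT5: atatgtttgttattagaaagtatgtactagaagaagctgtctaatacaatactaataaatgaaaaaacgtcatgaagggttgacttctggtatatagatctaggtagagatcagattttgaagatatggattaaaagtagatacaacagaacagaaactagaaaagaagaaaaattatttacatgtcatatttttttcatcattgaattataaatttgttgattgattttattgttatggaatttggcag

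ZAT10 (AT1G27730) was the most abundant of the 10 genes after glutamate. The protein is known for roles in salt, drought and high-light tolerance and is a substrate of MAP kinases. Its level was 54.8 and 55.7 RPKM in the control and 974 and 1101 RPKM in the glutamate libraries, and the groups did not overlap. This was a log2 change of 4.20 ± 0.13 (limma, adjusted p = 4.69e-05) and a ratio of 18.8 between mean RPKM values. The 5 other genes with the smallest Euclidean distance to ZAT10 in log2(RPKM + 1) over the 4 libraries were AT4G34150, AT5G52750, GILP, the calmodulin-like gene TCH2 and ERD7, at distances of 0.32 to 0.94. With 4 libraries in 2 groups, this distance reflects mostly the 2 group levels.

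ZAT12 (AT5G59820), also called RHL41, is known for roles in high-light, oxidative and cold responses. Its level was 29.3 and 32.7 RPKM in the control and 517 and 622 RPKM in the glutamate libraries. Its ratio of means was 18.4, close to that of ZAT10, from a lower starting level. On the log2 scale it rose by 4.15 ± 0.15 (limma, adjusted p = 5.83e-05).

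ZAT11 (AT2G37430), linked to root growth and to nickel sensitivity, was among the low genes at 0 h. It lay at 5.9 and 4.83 RPKM in the control and 73.4 and 95.5 RPKM in the glutamate libraries. Both glutamate libraries lay above both control libraries. ZAT11 rose by 3.74 ± 0.18 on the log2 scale (limma, adjusted p = 0.000116).

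ZAT6 (AT5G04340), known for roles in root growth, phosphate balance and cadmium tolerance, had the highest level at 0 h and one of the smaller rises. Its level was 64.8 and 68.3 RPKM in the control and 164 and 204 RPKM in the glutamate libraries. These groups did not overlap either. ZAT6 rose by 1.44 ± 0.15 on the log2 scale (limma, adjusted p = 0.00153), and 7.17% of the genes tested rose more.

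ZAT5 (AT2G28200) went the other way. Its level was 16.3 and 15.8 RPKM in the control and 1.99 and 2.02 RPKM in the glutamate libraries, from 544 and 461 reads to 45 and 53 reads. The replicates lay close together in both groups, and the glutamate level was 8.03 times below the control level. The log2 change was -2.51 ± 0.12 (limma, adjusted p = 0.000129), the fall of rank 32 among the 17750 genes tested. At 0 h ZAT5 stood at rank 5 of the 10 genes, and at 0.5 h at rank 10.

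The 3 AZF genes rose less than ZAT7, ZAT8, ZAT10, ZAT11 and ZAT12, by 0.93 to 2.63 on the log2 scale. AZF1 and AZF2 are known to be induced by abscisic acid and salt and to repress auxin-inducible and other genes. AZF2 (AT3G19580) lay at 10.3 and 13 RPKM in the control and 77.7 and 75.9 RPKM in the glutamate libraries. The log2 change of AZF2 was 2.63 ± 0.15 (limma, adjusted p = 0.000191), a ratio of 6.58.

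AZF1 (AT5G67450) made the smallest rise. It lay at 13.4 and 14.4 RPKM in the control and 22.6 and 32.9 RPKM in the glutamate libraries. The lower glutamate library was still above both control libraries, but the gap between the glutamate libraries, 22.6 and 32.9, was wider than that from the lower one to the controls. The log2 change was 0.93 ± 0.20 (95% interval 0.43 to 1.42; limma, adjusted p = 0.0191). The call was lost without the filter on low values (adjusted p = 0.104).

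AZF3 (AT5G43170) lay at 25.5 and 41 RPKM in the control and 79.5 and 120 RPKM in the glutamate libraries. Replicate 2 was the higher library in both groups. The log2 change was 1.56 ± 0.29 (95% interval 0.84 to 2.29; limma, adjusted p = 0.012), and this call too was lost without the filter (adjusted p = 0.096). Both its level and its change are uncertain, because the deposited shared-read fraction of AZF3 was 0.682, against 0 for the other 9 members. The annotated exon of AZF3 (chr5:17330945-17331646, minus strand) overlaps an exon of AT5G43160 on the plus strand over 318 bases, 45.3% of its length. AT5G43160 had a shared-read fraction of 0.571 and was at 1.19 and 1.89 RPKM in the control and 1.26 and 1.54 RPKM in the glutamate libraries (log2 change -0.07, adjusted p = 0.818). The use of strand in counting is not given in the sources used here, so reads of the overlap cannot be told apart by strand, and the part of the overlap in the shared fraction was not tested.

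**Figure D2:**
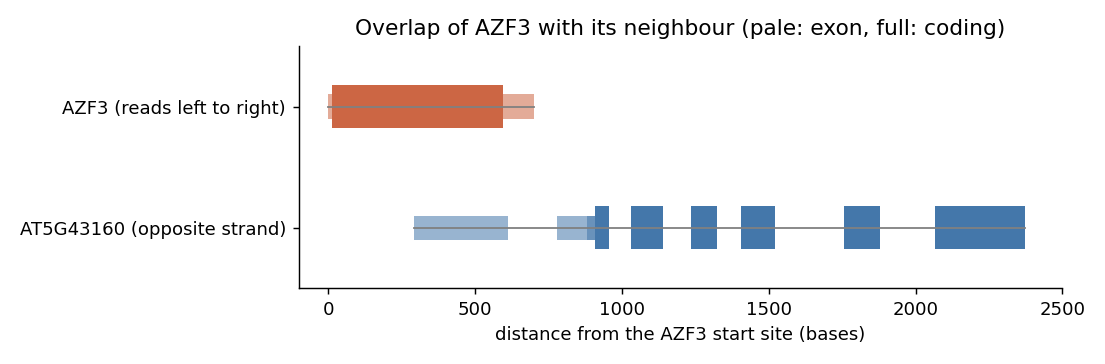
Map of AZF3 (orange) and AT5G43160 (blue) by distance in bases from the AZF3 start site, TAIR10.1 annotation, with exons pale and coding parts in full colour. The exons overlap over 318 bases, almost wholly within the coding part of AZF3 and outside the coding part of AT5G43160.

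The order of the levels changed with treatment. RPKM is per length, so levels can be set side by side between genes. At 0 h the order by mean was ZAT6, ZAT10, AZF3, ZAT12, ZAT5, AZF1, AZF2, ZAT8, ZAT11 and ZAT7, from 66.6 to 3.65 RPKM. The ranges of AZF3 and ZAT12 overlapped, as did those of ZAT8 and ZAT11. At 0.5 h the order was ZAT10, ZAT12, ZAT7, ZAT8, ZAT6, AZF3, ZAT11, AZF2, AZF1 and ZAT5, from 1037 to 2.00 RPKM, and here the ranges of ZAT12 and ZAT7, of AZF3 and ZAT11, and of ZAT11 and AZF2 overlapped. The deposited gene lengths were 63% to 100% of the RefSeq transcript lengths of these genes, and that of ZAT8 (495 bases) equalled its coding length, which bears on levels between genes but not on changes within one.

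**Figure D3:**
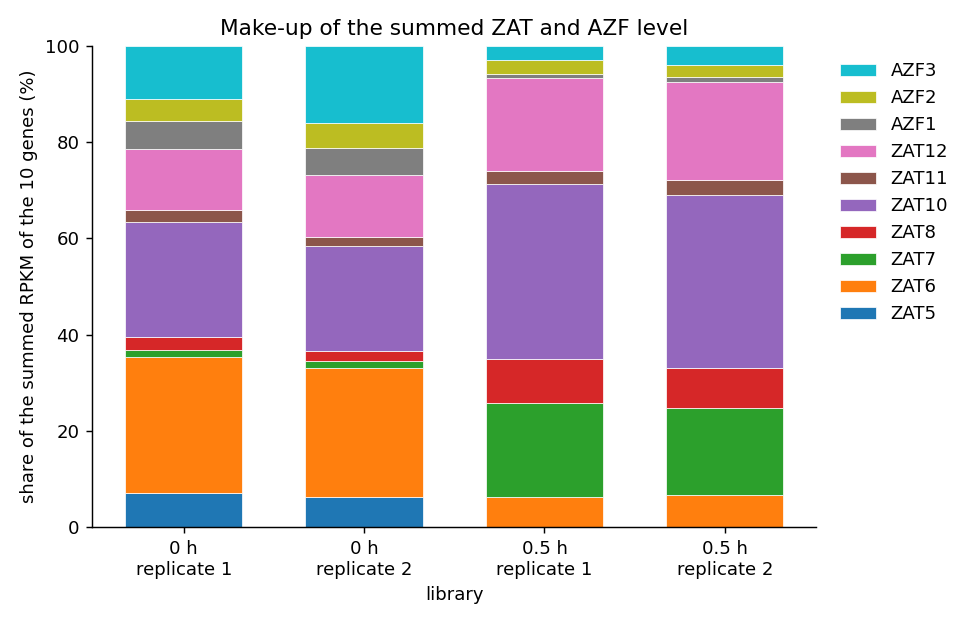
Share of the summed RPKM of the 10 genes taken by each gene, in percent, in each of the 4 libraries. ZAT6 takes 28.2% and 26.8% of the sum at 0 h and 6.1% and 6.65% at 0.5 h, while ZAT7 goes from 1.6% and 1.41% to 19.7% and 18%.

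Summed over the 10 genes, the level was 230 and 255 RPKM in the control and 2685 and 3062 RPKM in the glutamate libraries. The same genes took 0.0222% and 0.0248% of the recovered reads in the control and 0.198% and 0.234% in the glutamate libraries. ZAT7, ZAT10 and ZAT12 together made up 38.1% and 36.1% of the summed RPKM at 0 h and 75.2% and 74.3% at 0.5 h. The make-up was alike between the replicates of a group and differed between the groups.

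In gene structure 9 of the 10 members have 1 exon in every annotated transcript, and AZF2 has a second transcript form with 2 exons. Of the annotated protein-coding genes tested 13.4% have 1 exon, as do 22.5% of those called higher, 16.7% of those called lower and 38.8% of those called higher with a log2 change of at least 3.

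**Figure D4:**
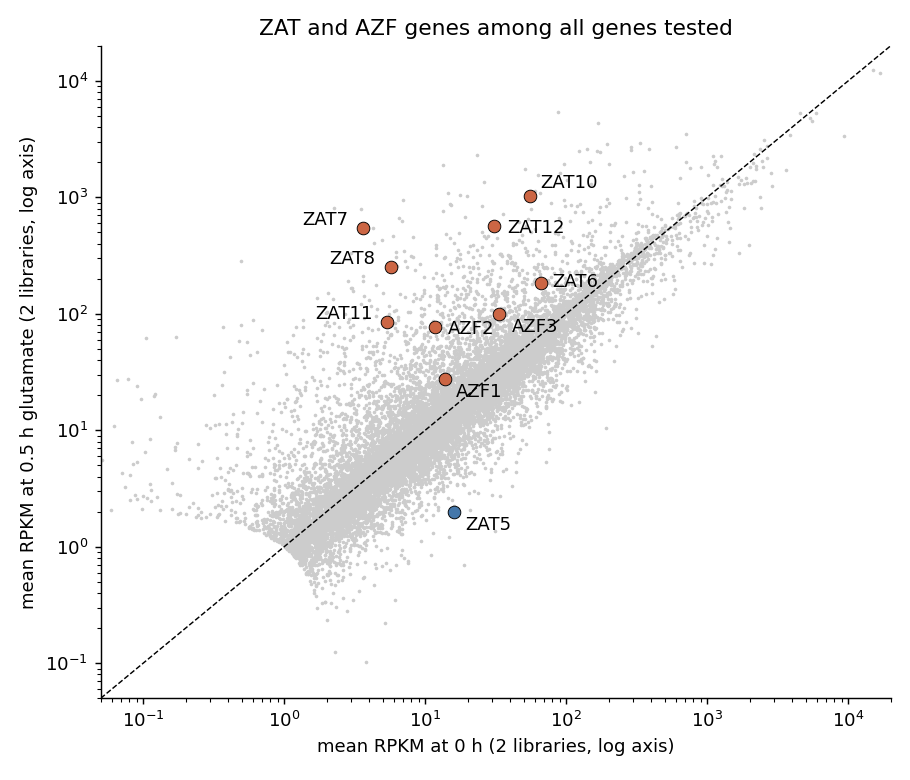
Mean RPKM at 0 h (x axis) and at 0.5 h of glutamate (y axis), both on log axes, for the 17750 genes tested (grey), with the 10 members marked and the dashed line at equal levels. Of the 10 members 9 lie above the line and ZAT5 below it.

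A list of 14 further C2H2 genes, which does not cover the class, was set beside the family. Of these, 8 were below the minimum mean of 1 RPKM and were not tested. Of the 6 tested 1 was called higher, 1 lower and 4 neither, with a median log2 change of 0.05. These counts are near the background, with 16.3% of all genes tested called higher and 14.6% lower. AT3G53600 was the one that rose, from 0.296 and 0.339 RPKM to 18.2 and 22.3 RPKM, or from 4 reads in each control library to 189 and 269 reads. Its log2 change was 4.00 ± 0.15 (limma, adjusted p = 7.3e-05). AT3G49930 fell from 1.48 and 1.8 RPKM to 0.458 and 0.395 RPKM, on 30 and 32 reads in the control and 6 in each glutamate library (log2 change -0.88 ± 0.16, adjusted p = 0.0111). AT2G28710 lay at 10.8 and 14.2 RPKM in the control and 4.9 and 9.44 RPKM in the glutamate libraries and did not pass (adjusted p = 0.108), but was called lower without control replicate 1 (adjusted p = 0.0431), without glutamate replicate 2 (adjusted p = 0.00372) or with the replicate block (adjusted p = 0.00227).

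**Figure D5:**
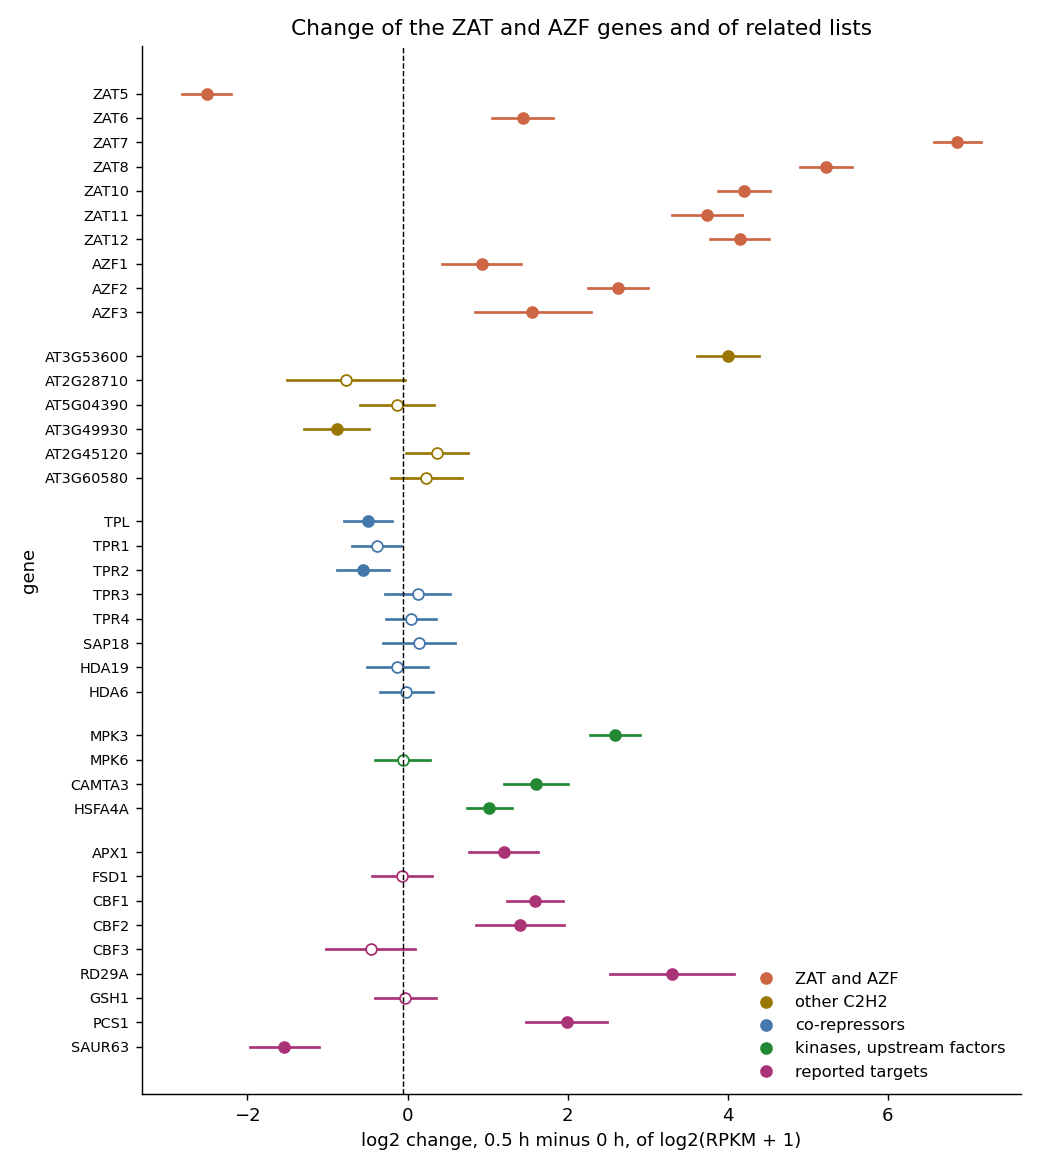
Log2 change (0.5 h minus 0 h, of log2(RPKM + 1)) of the 10 members and of the tested genes of 4 related lists, with bars for 95% intervals from limma and filled points for genes called at an adjusted p under 0.05. The dashed line marks the median of all genes tested, -0.06. The members span -2.51 to 6.87 and the co-repressor genes -0.56 to 0.14.

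Of 8 genes for co-repressors that EAR motifs recruit, 0 were called higher, 2 lower and 6 neither (limma), with a median log2 change of -0.07. Shares of 16.3% and 14.6% of all genes tested were called higher and lower, so these counts are near the background. At an unadjusted p under 0.05, and with voom, 0 were higher too. TPL, the TOPLESS gene, lay at 37 and 33.8 RPKM in the control and 25.5 and 24.1 RPKM in the glutamate libraries (log2 change -0.50 ± 0.12, adjusted p = 0.0315). The related TPR2 lay at 20.5 and 18 RPKM in the control and 13.1 and 12.3 RPKM in the glutamate libraries (log2 change -0.56 ± 0.13, adjusted p = 0.0262). Both calls were near the threshold: that of TPL was lost when any 1 of the 4 libraries was left out (adjusted p from 0.0632 to 0.165) with centring on reference genes (adjusted p = 0.0575) and without the filter (adjusted p = 0.0508). That of TPR2 was lost without control replicate 1 or either glutamate replicate (adjusted p from 0.074 to 0.129) and without the filter (adjusted p = 0.0638). TPR1, at 14.4 RPKM in both control libraries and 10.3 and 11.3 RPKM in the glutamate libraries, was not called (adjusted p = 0.0672), but was called lower under quantile normalization, under scaling to library totals and with the replicate block (adjusted p = 0.0447, 0.02 and 0.00852). The histone deacetylase genes HDA19 and HDA6 had log2 changes of -0.13 ± 0.15 and -0.02 ± 0.13.

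Of 4 genes whose products are known to act on ZAT proteins or genes, 3 were called higher and 0 lower (limma). Their median log2 change was 1.32. At an unadjusted p under 0.05, and with voom, 0 were lower too. For comparison, 16.3% of all genes tested were called higher and 14.6% lower. The related MAP kinase genes MPK3 and MPK6 are both on this list for a reported action on ZAT proteins or genes. MPK3 went from 95.6 and 86.7 RPKM to 555 and 554 RPKM (log2 change 2.59 ± 0.12, limma, adjusted p = 0.000119). MPK6 lay at 46.6 and 51.2 RPKM in the control and 43.1 and 50.5 RPKM in the glutamate libraries, groups that overlap. The log2 change of MPK6 was -0.06 (limma, adjusted p = 0.768). CAMTA3, a calmodulin-binding factor that acts on ZAT12 in the cold, rose by 1.61 ± 0.16 and the heat shock factor gene HSFA4A by 1.02 ± 0.11 on the log2 scale (adjusted p = 0.0012 and 0.00195).

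Genes reported to depend on ZAT or AZF proteins were called higher more often than lower. Of 10 listed genes 9 were tested, of which 5 were called higher, 1 lower and 3 neither, with a median log2 change of 1.20. The 1 called lower was SAUR63, whose shared-read fraction of 0.833 makes its fall uncertain. The shares over all genes tested were 16.3% higher and 14.6% lower. CBF1 and CBF2, cold-response factors whose transcripts ZAT12 is known to lower, went from 0.928 and 0.916 to 4.98 and 4.58 RPKM and from 5.02 and 8.18 to 18.1 and 19.4 RPKM (adjusted p = 0.000827 and 0.00644). Without the filter CBF2 was no longer called (adjusted p = 0.0631). CBF3, their neighbour, is like them on the list of reported targets. It lay at 1.25 and 2.3 RPKM in the control and 0.92 and 1.03 RPKM in the glutamate libraries. The log2 change of CBF3 was -0.46 (limma, adjusted p = 0.181), and -0.74 without control replicate 1. RD29A, a dehydration gene whose promoter ZAT10 represses in transient assays, went from 9.59 and 5 to 92 and 65.9 RPKM (log2 change 3.31 ± 0.31, adjusted p = 0.00102).

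Among genes of redox and metal defence, the ascorbate peroxidase gene APX1, which depends on ZAT12 under oxidative stress, went from 678 and 604 to 1662 and 1302 RPKM (log2 change 1.20 ± 0.17, adjusted p = 0.00479, and 0.0976 without the filter). The phytochelatin synthase gene PCS1 and GSH1, of glutathione synthesis, are both on the list of reported targets. PCS1 rose by 1.99 ± 0.20 on the log2 scale (limma, adjusted p = 0.00137). GSH1 lay at 113 and 96.2 RPKM in the control and 111 and 93.5 RPKM in the glutamate libraries. The log2 change of GSH1 was -0.03 (limma, adjusted p = 0.9). FSD1, of superoxide removal, had a log2 change of -0.07 ± 0.15, and APX2 held at most 3 reads per library. SAUR63, an auxin-inducible gene that AZF1 and AZF2 repress, went from 7.71 and 6.3 to 2.01 and 1.5 RPKM (log2 change -1.54 ± 0.17, limma, adjusted p = 0.0019). Its shared-read fraction of 0.833 leaves both its level and its change uncertain.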

How the data were processed

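Total RNA from 4 samples, extracted with Trizol, went into Illumina TruSeq libraries, per the labels' protocols. The submitters' processing notes name the TAIR10 genome and SAMtools. The aligner, the counter and tool versions were not given in these sources. The deposited table holds the authors' RPKM values after TMM scaling, 1 column per library, and a gene length. It also holds a fraction between 0 and 1 that the deposited header does not define, read here as the share of reads matching elsewhere. In each library the RPKM times length has a lowest level, shared by 10360 to 10694 genes. Reading that level as 0.5 reads gave recovered reads that were whole, within 0.01, for at least 99.9% of genes with a fraction of 0 and for 85.3% to 86.2% of genes in all. Chi-square per degree of freedom over genes with at least 20 reads was 31.7 between the control and 27.1 between the glutamate libraries, so replicates differed beyond counting noise.

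Values were tested as log2(RPKM + 1) in limma 3.58.1 (R 4.3.3), trended prior variance, two-sided, for the 17750 genes whose mean reached 1 RPKM, with Benjamini-Hochberg adjustment. The steps were run on simulated counts with a fixed spread that was not estimated from these libraries, and without an effect of replicate number. That run does not measure the error rate in these libraries. With 2 libraries per group the smallest exact permutation p is 0.333, and no such test was made. Positions and promoter sequences come from RefSeq on TAIR10.1; the deposited table has no coordinates. Coding sequences were aligned with Biopython 1.88. Members and lists were chosen with earlier results of these data known. By the naming rule, the text may give values for any member and any gene of the lists. A rule on the symbol ZAT with a number also matched the zinc transporter gene MTP1, which is no C2H2 gene and was left out. Alternatives were another pseudocount, filter, scaling or test, the replicate block, and leaving out each library.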

Additional observations from a re-analysis of the deposited data

How the results depend on the processing

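Under all 14 alternatives the 10 genes kept their direction. The calls of ZAT5, ZAT6, ZAT7, ZAT8, ZAT10, ZAT11, ZAT12 and AZF2 held under each. Without the filter on low values AZF1 (log2 change 0.93, adjusted p = 0.104) and AZF3 (1.56, adjusted p = 0.096) were no longer called, so that 7 members were higher; that fit tests 33602 genes. With 1 library left out AZF1 ranged from 0.67 to 1.19 and AZF3 from 1.23 to 1.89. Over all genes, 2888 were higher and 2585 lower. Without the filter 1335 were lower, with library totals 4360 were lower, and with the replicate number as a block 4445 were higher and 5280 lower. The block changed no call of a member. Replicates share only a number in the labels; deviations of same-numbered libraries correlated across genes at r = 0.60. Scaling shifted the median log2 change of all genes from -0.06 to -0.23 (library totals), -0.15 (quantile) or 0.02 (reference genes). Of the related lists 4 genes were lower as deposited, 2 without the filter, 2 when the mean had to reach 5 RPKM, and 2 to 4 with 1 library left out. The cause of these shifts was not tested, except that a stricter filter removes low genes. For the 27 tested genes of those lists, 352 comparisons with an alternative kept their side of the threshold, 12 lost and 7 gained a call.

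The lowest count of a member was 45 reads, for ZAT5 after glutamate. The C2H2 genes without reads were not detectable at this depth.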
